A study of Mus musculus with 6 samples.

Results

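The 9 complement genes described here were chosen by name in the deposited gene table, out of 54532 genes. They are 5 activators (C3, Cfb, C1ra, C1s1 and C4b) and 4 inhibitors (Cd55, Cd59a, Cd46 and C1qbp). All 9 were found, and the expression filter of the test was passed by 4 of them: C3, C1ra, C1s1 and C1qbp. Their levels were compared by bulk RNA-seq between 3 CRISPR Y-KO and 3 CRISPR Y-Scr libraries of MB49, a mouse bladder cancer cell line derived from a male animal. Both are described as Y-positive (Y+) MB49 lines in a study of Y chromosome loss. The Y genes Ddx3y, Eif2s3y, Kdm5d and Uty nevertheless had 0 counts in every Y-KO library. Y-KO carries the genotype label CRISPR Y-KO, and the guide behind it is not stated in the labels. Y-Scr cells received a non-targeting guide RNA and serve as the control. The tissue label names MB49 tumor for all 6 samples, while the protocols describe cultured cells. Cells of both groups carry a transduced construct, since the protocols describe sorting on a red fluorescent protein and growth from single cells. Each group may therefore stand for few clones, and a difference between clones and an effect of Y loss cannot be told apart. The labels place all libraries in batch 1 and do not say whether replicates were separate cultures, so each p-value covers no more than the spread among these 6 libraries, which may be technical.

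The complement system is a cascade of plasma and cell-derived proteins that marks cells and microbes for removal. The classical pathway starts when C1q bound to a target activates the proteases C1r and C1s, and the lectin pathway starts from ficolins and mannose-binding proteins. Both lead through C4 and C2 to the cleavage of C3, which the alternative pathway with factor B then amplifies. Host cells carry inhibitors on their membrane that stop the cascade at C3 (CD55, CD46 and, in rodents, Crry) or at the final pore (CD59).

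The libraries held 15698510 to 24633158 counts. The Y genes Ddx3y, Eif2s3y, Kdm5d and Uty had 0 counts in every Y-KO library and 3296 to 8525 summed counts in the Y-Scr group, so they were at least 1022-fold lower in Y-KO. Of 13 urothelial and epithelial markers, Krt8, Krt18 and Gata3 passed the filter. Krt8 rose by 0.36 on the log2 scale (adjusted p = 7.1e-05) and Gata3 fell by 1.48 (adjusted p = 1.4e-05) in edgeR's quasi-likelihood test. Krt18 did not pass in the same test (0.03, adjusted p = 0.773), while Epcam and Cdh1, which define epithelial cells, had 0 counts throughout. Of 14 leukocyte markers, 6 had 0 counts in all libraries, the pan-leukocyte gene Ptprc among them. Their summed level was 38.8 to 42.9 CPM (the usual read depth-scaled count, on TMM-scaled library sizes) in Y-KO and 56.4 to 62.6 CPM in Y-Scr, nearly all of it from Cd14. Without Cd14 the sum was 0.684 to 1.56 CPM in Y-KO and 1.26 to 1.63 CPM in Y-Scr. Itgb2, a leukocyte integrin gene outside that marker list, averaged 9.48 CPM in Y-KO and 6.73 CPM in Y-Scr, the opposite direction to Cd14. Of 6 hepatocyte markers, 5 had 0 counts throughout, and Apoa1 had 0 counts in Y-KO and 2 in Y-Scr. The part of these markers in the results was not tested.

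C3 and the protease genes C1s1 and C1ra were lower in Y-KO, while C1qbp, the only inhibitor member that could be tested, did not pass the threshold. Of the 4 tested members, 3 fell (C3, C1s1 and C1ra) and 0 rose at an adjusted p (Benjamini-Hochberg) under 0.05, tested with edgeR's quasi-likelihood method. Across all 12907 tested genes, 23.0% were called lower, 20.7% higher and 43.6% in either direction. The median log2 fold change (Y-KO minus Y-Scr) of the 4 tested members was -0.62, beside -0.01 over all tested genes. In bulk RNA, fewer cells making a transcript and less of it per cell cannot be told apart.

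**Figure D1:**
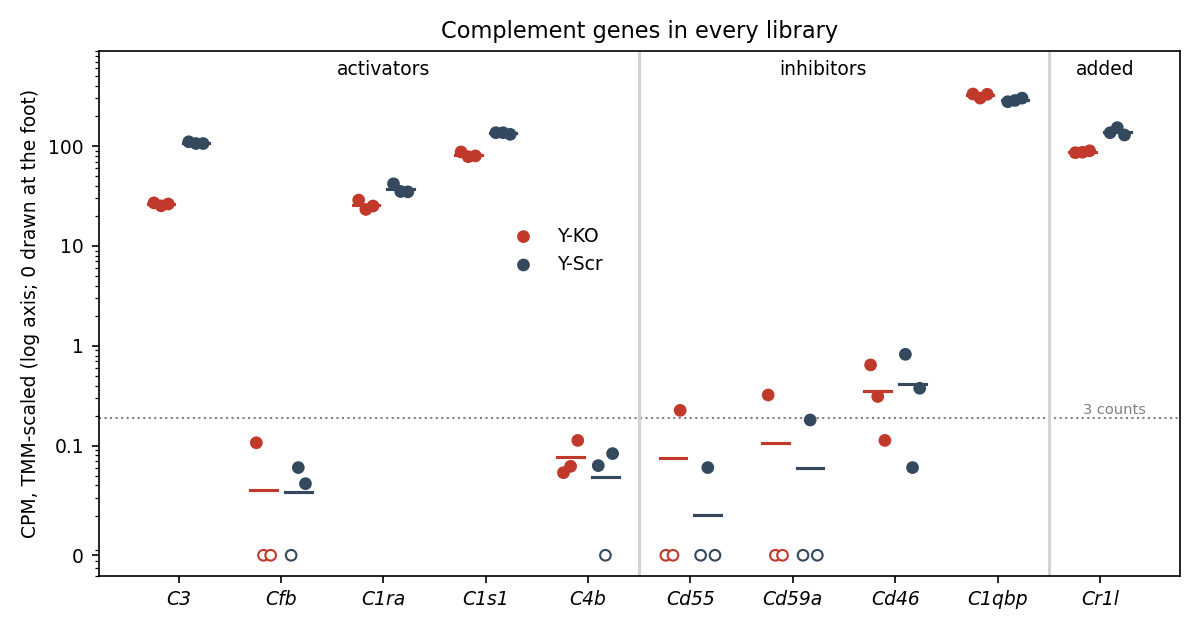
Level of each of the 9 members and of Cr1l, the mouse gene for Crry, in every library (CPM on TMM-scaled library sizes, log axis, zeros as open circles at the foot; lines are means of 3 libraries; dotted line, CPM of 3 counts in Y-Scr 1, the library with the smallest TMM-scaled size). C3, C1ra and C1s1 lie lower in the Y-KO libraries without overlap, and Cfb, C4b, Cd55 and Cd59a stay at a few counts or none.

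C3, the component on which all pathways meet, had the largest change of the 4 tested members. C3 stood at 27.0, 25.2 and 26.3 CPM in the Y-KO libraries, against 110.4, 106 and 106 CPM in the Y-Scr libraries. The groups lay far apart, and the spread within each was small. Mean levels were 26.2 ± 0.882 CPM in Y-KO and 107 ± 2.53 CPM in Y-Scr (SD, n = 3 each). C3 (ENSMUSG00000024164, chromosome 17, 57203970 to 57228136, GRCm38, minus strand, 41 exons in its principal transcript) fell by 2.04 on the log2 scale (SE 0.08, adjusted p = 6.3e-14, edgeR's quasi-likelihood test). That left 24.4% of the Y-Scr level. Only 171 of the 12907 tested genes, C3 included, had a fold change as low or lower, which is 1.32%. By level per gene length, C3 ranked 7193 among the tested genes in Y-KO and 2805 in Y-Scr.

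The promoter of C3 is shown because this gene had the largest change among the tested members. The sequence is from RefSeq (GRCm38.p6), 250 bases before the start site and 50 from it on, at chr17:57228087-57228386 on the minus strand. Capitals mark matches on either strand to GGGNNNNNCC, the loose form of the site bound by NF-kB, to GAAANNGAAA, the interferon-stimulated response element, or to TTCNNNGAA, the site bound by STAT dimers.
C3: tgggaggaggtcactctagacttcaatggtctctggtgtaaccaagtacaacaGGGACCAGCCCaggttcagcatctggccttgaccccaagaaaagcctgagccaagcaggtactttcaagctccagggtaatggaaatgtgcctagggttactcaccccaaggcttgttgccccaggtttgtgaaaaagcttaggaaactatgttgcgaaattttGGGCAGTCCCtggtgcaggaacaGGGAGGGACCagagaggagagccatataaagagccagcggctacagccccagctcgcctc
The 3 capital stretches are all matches to GGGNNNNNCC, with first letters 197, 33 and 10 bases upstream of the start site. In the stretch at 197 bases a match on the other strand overlaps by all but its last letter, and the letters at 33 bases match on both strands. Such a match is common, since 50.8% of 32851 promoters of this length in the RefSeq table hold one. GAAANNGAAA occurs in 3.44% and TTCNNNGAA in 8.3% of these promoters, and neither is in the C3 window. Of the 9 members, 7 had a promoter in the table (Cfb and C4b had none). GGGNNNNNCC matched in 6 of the 7, GAAANNGAAA in 2 (Cd59a and Cd46) and TTCNNNGAA in 1 (C1ra).

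C1s1 and C1ra encode the mouse C1s and C1r proteases, which sit together in the C1 complex. They lie side by side on chromosome 6, 6901 bases apart, with no gene between them in the deposited table and on opposite strands. C1s1 (ENSMUSG00000038521, 124530345 to 124542359, minus strand) stood at 87.3, 78.2 and 79.7 CPM in Y-KO, against 136, 136 and 131 CPM in Y-Scr. Every Y-KO library was below every Y-Scr library. C1s1 fell by 0.71 on the log2 scale (SE 0.07, adjusted p = 6.5e-08, edgeR's quasi-likelihood test), to 61.0% of the Y-Scr level. C1ra (ENSMUSG00000055172, 124512405 to 124523443, plus strand) stood at 28.8, 23.2 and 25.1 CPM in Y-KO, against 41.9, 35.1 and 34.8 CPM in Y-Scr. The groups again did not overlap, although they came closer than those of C1s1. C1ra fell by 0.53 (SE 0.10, adjusted p = 3.8e-04, edgeR's quasi-likelihood test), to 69.1% of the Y-Scr level. Both calls held under all 16 alternative settings. After correction of every library for gene length and GC content, the fall was 0.51 for C1s1 and 0.39 for C1ra on the log2 scale. The median over all tested genes also moved upward with it, from -0.01 to 0.06.

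The promoters of both protease genes are shown as the neighbours that fell in the same comparison, with capitals as for C3. That of C1s1 is at chr6:124542310-124542609 on the minus strand, and that of C1ra at chr6:124512371-124512670 on the plus strand.
C1s1: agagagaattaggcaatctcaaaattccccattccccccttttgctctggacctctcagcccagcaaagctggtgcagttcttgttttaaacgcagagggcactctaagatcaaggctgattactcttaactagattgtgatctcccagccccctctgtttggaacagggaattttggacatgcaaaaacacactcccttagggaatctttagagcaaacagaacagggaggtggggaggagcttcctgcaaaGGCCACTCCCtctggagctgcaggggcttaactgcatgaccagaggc
C1ra: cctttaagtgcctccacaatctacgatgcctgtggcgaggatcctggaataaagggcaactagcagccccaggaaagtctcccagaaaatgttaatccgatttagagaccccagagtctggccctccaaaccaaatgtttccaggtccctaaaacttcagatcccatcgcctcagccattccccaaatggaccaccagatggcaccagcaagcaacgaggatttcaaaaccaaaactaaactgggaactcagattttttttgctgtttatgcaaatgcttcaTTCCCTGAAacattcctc
C1s1 holds 1 match to GGGNNNNNCC, on the other strand and 3 bases downstream of the start site. C1ra holds none and has 1 match to TTCNNNGAA instead, 32 bases downstream. Any match to this pattern is a match on both strands, although the letters between differ. The RefSeq start site of C1ra lies 216 bases inside the deposited gene, whereas those of C3 and C1s1 coincide with the deposited gene ends.

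Near-identical copies of the protease genes received few reads. C1rb, the copy of C1ra, had 1, 4 and 0 counts in Y-KO, against 1, 12 and 0 in Y-Scr. C1s2, the copy of C1s1, had 9, 9 and 16 counts in Y-KO, against 7, 2 and 19 in Y-Scr. With the copies summed before the fit, the log2 fold changes were -0.54 for C1ra and -0.71 for C1s1. Whether reads were counted by strand is not stated in the labels. No gene on the opposite strand with a count overlapped C3, C1ra, C1s1 or C1qbp.

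The other activators were at the limit of detection. Cfb, which encodes factor B, the protease subunit of the alternative pathway (ENSMUSG00000090231, chromosome 17, 34856374 to 34862518), had 2, 0 and 0 counts in Y-KO, against 0, 1 and 1 in Y-Scr. C4b, which encodes C4 (ENSMUSG00000073418, chromosome 17, 34728380 to 34743882), had 1, 1 and 2 counts in Y-KO, against 1, 0 and 2 in Y-Scr. Every library was at or under 3 counts for both genes, a floor of 0.125 to 0.19 CPM per library, so no fold is given and a difference was not detectable at this depth. C4a, the near-identical copy of C4b that the table annotates as a processed transcript, had 31, 13 and 15 counts in Y-KO, against 13, 17 and 23 in Y-Scr. It did not pass (0.25 ± 0.42 SE, adjusted p = 0.665, edgeR's quasi-likelihood test). Floors and intervals cover counting error only. C4b, C4a, Cfb and C2 lie in one stretch of the major histocompatibility complex on chromosome 17, in which 6 of 18 genes passed the filter, C4a being the only complement gene among them.

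The 3 membrane inhibitors among the members were barely detected. Cd55, the decay-accelerating factor (chromosome 1, 130439027 to 130462744), had 0, 0 and 4 counts in Y-KO, against 0, 1 and 0 in Y-Scr, a ratio of 4.30 (exact 95% interval 0.426 to 212). Cd59a, whose product blocks assembly of the pore (chromosome 2, 104095801 to 104115354), had 6, 0 and 0 counts in Y-KO, against 0, 3 and 0 in Y-Scr, a ratio of 2.15 (0.459 to 13.3). In both genes all counts of a group came from a single library. Cd46, a cofactor for cleavage of C3b that in mice is expressed mainly in testis (chromosome 1, 195036826 to 195092249), had 12, 5 and 2 counts in Y-KO, against 13, 1 and 9 in Y-Scr. Its ratio was 0.888 (0.457 to 1.70), and the libraries of both groups overlapped. These intervals rest on group sums and leave out the spread between libraries, so none of these genes can be called changed or unchanged. Their copies Cd55b and Cd59b had 0 counts in all 6 libraries.

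C1qbp, the inhibitor member with a high level, encodes a mainly mitochondrial protein that also binds the heads of C1q. C1qbp (ENSMUSG00000018446, chromosome 11, 70977836 to 70983026, minus strand) stood at 332, 302 and 329.9 CPM in Y-KO, against 278, 286 and 302 CPM in Y-Scr. The lowest Y-KO library and the highest Y-Scr library were nearly level. Its log2 fold change was 0.16 (SE 0.06), with an adjusted p = 0.0545 in edgeR's quasi-likelihood test, just outside the threshold. The direction was the same in all 16 alternatives, and 6 of them placed it past the threshold, with adjusted p-values between 1.1e-04 and 0.203. It stood at 0.30 (adjusted p = 1.1e-04) after the correction for length and GC content, which moved the median of all tested genes from -0.01 to 0.06. So 4 of the 4 tested members had groups that did not overlap, beside 52.9% of all tested genes: 3 lay lower in Y-KO, beside 27.5%, and 1 higher, beside 25.4%.

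Crry, the membrane inhibitor that rodents use widely in place of CD46, is encoded by Cr1l, which is not among the 9 members and was taken from the wider complement list. It was the only one of 8 membrane inhibitor genes in that list that passed the filter. Cr1l (ENSMUSG00000016481, chromosome 1, 195097382 to 195131586, minus strand), which lies 5132 bases from Cd46, stood at 85.8, 86.7 and 89.7 CPM in Y-KO, against 136, 153 and 129 CPM in Y-Scr. It fell by 0.67 on the log2 scale (SE 0.07, adjusted p = 2.9e-07, edgeR's quasi-likelihood test), to 62.7% of the Y-Scr level. Every Y-KO library lay below every Y-Scr library.

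The promoters of the inhibitor genes with a high level are shown beside those of the activators, with the same capitals. That of Cr1l is at chr1:195131521-195131820 and that of C1qbp at chr11:70982977-70983276, both on the minus strand.
Cr1l: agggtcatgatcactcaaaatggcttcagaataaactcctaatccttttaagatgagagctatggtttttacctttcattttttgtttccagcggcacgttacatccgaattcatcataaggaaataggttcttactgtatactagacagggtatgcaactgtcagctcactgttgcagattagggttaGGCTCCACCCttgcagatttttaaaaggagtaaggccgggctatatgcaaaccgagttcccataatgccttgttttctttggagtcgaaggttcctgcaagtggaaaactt
C1qbp: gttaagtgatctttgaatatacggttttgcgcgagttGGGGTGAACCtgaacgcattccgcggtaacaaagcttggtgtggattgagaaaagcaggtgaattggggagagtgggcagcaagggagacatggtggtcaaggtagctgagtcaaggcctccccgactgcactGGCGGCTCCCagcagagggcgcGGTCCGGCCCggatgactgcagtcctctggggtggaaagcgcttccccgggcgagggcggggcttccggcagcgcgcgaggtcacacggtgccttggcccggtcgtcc
All capitals are matches to GGGNNNNNCC. Cr1l holds 1, at 61 bases upstream, and C1qbp holds 3, at 213, 80 and 58 bases upstream. Such a match is in 50.8% of the promoters searched, and its part in the levels was not tested.

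Ratios of counts within a library, which no scaling between libraries can change, set the members against each other. The log2 ratio of C3 to C1s1 was -1.69, -1.63 and -1.60 in Y-KO, against -0.30, -0.36 and -0.29 in Y-Scr. The ratio was lower in every Y-KO library, with a difference of -1.32. The log2 ratio of C3 to C1ra averaged 0.03 ± 0.11 in Y-KO and 1.53 ± 0.12 in Y-Scr, and that of C3 to Cr1l averaged -1.74 ± 0.06 in Y-KO and -0.37 ± 0.14 in Y-Scr (SD, n = 3 each). The ratio of C1s1 to Cr1l overlapped between the groups, with means of -0.10 ± 0.11 in Y-KO and -0.05 ± 0.10 in Y-Scr (SD, n = 3 each). The protease pair overlapped too, with a mean log2 ratio of C1s1 to C1ra of 1.67 ± 0.08 in Y-KO and 1.85 ± 0.14 in Y-Scr. Among 10 pairs of C3, C1s1, C1ra, Cr1l and C1qbp, 7 had no overlap between groups. Every one of these genes had groups without overlap on its own, and the pairs share genes, so the 7 are not separate results. The share over pairs of other genes was not computed. Each of the 7 reached p = 0.1 in a two-sided exact permutation test, the smallest p that 3 against 3 libraries allow (adjusted p = 0.143 over the 10 pairs). This test cannot reach 0.05 with 3 libraries a group.

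**Figure D2:**
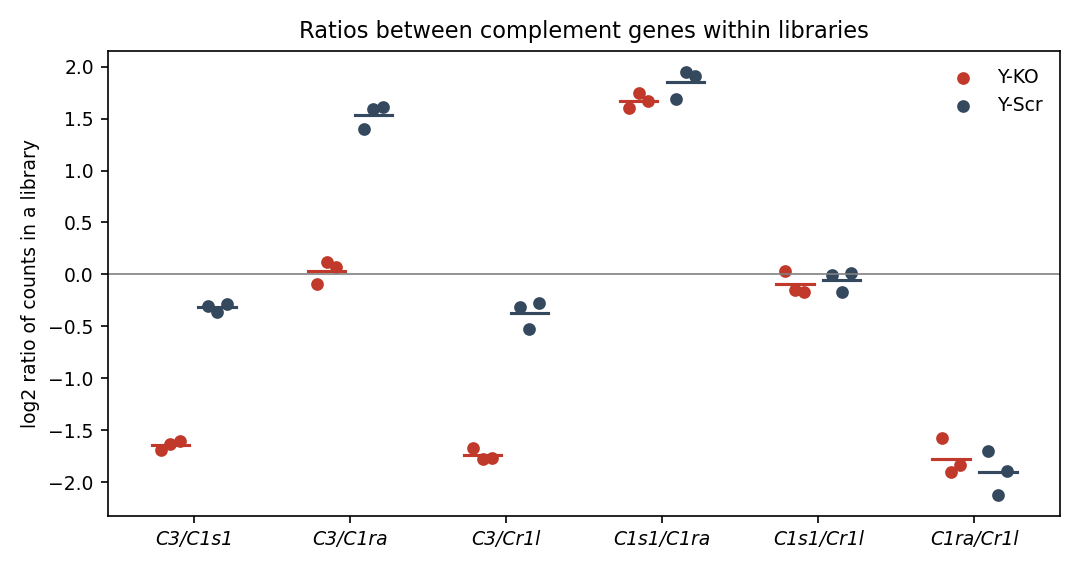
Log2 ratio of the counts of 2 complement genes within each library, for 6 of the 10 pairs compared (points, libraries; lines, group means). The 3 ratios with C3 are lower in every Y-KO library, and the ratios among C1s1, C1ra and Cr1l overlap.

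Set side by side per length, the activator sum was lower in Y-KO, and the inhibitor sum was almost wholly C1qbp, which did not pass the test. The summed level of the 5 activators was 42.9, 37.7 and 39.0 CPM per kilobase of deposited gene length in Y-KO, against 78.9, 75.8 and 74.1 in Y-Scr. C1s1 made up 65.6% of the activator sum in Y-KO and 56.2% in Y-Scr, and C3 made up 12.8% in Y-KO and 27.4% in Y-Scr (means of 3 libraries). The 4 inhibitors summed to 118, 107 and 117 in Y-KO, against 98.4, 101 and 107 in Y-Scr, of which C1qbp gave 99.9% in both groups. The level ratio of activators to inhibitors was 0.350 ± 0.0150 in Y-KO and 0.748 ± 0.0538 in Y-Scr (SD, n = 3 each), with no overlap. Set instead against the membrane inhibitors Cd55, Cd59a, Cd46 and Cr1l, the activators stood at a level ratio of 4.65 ± 0.309 in Y-KO and 5.65 ± 0.474 in Y-Scr. That membrane sum was almost wholly Cr1l, which gave 8.45 of 8.57 in Y-KO and 13.5 of 13.6 in Y-Scr (mean CPM per kilobase). These sums are descriptions, since the genes were chosen with earlier results known, and carry no test.

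The order of levels between genes rests on the length used. By deposited gene length, C1qbp was highest (114 in Y-KO, 102 in Y-Scr), followed by C1s1 (26.1 in Y-KO, 42.8 in Y-Scr). C1ra (8.62) and Cr1l (8.45) were next in Y-KO and did not differ beyond their spread, with C3 (5.09) below them. In Y-Scr, C3 (20.9) stood next, above Cr1l (13.5) and C1ra (12.5), which again lay within their spread. The deposited length of Cr1l is 10349 bases, while its principal transcript has 1651. With principal transcript lengths, an alternative added after the data were seen, Cr1l stood at 52.9 in Y-KO and 84.5 in Y-Scr, above C1s1 in both groups. The level ratio of activators to membrane inhibitors was then 0.782 ± 0.0617 in Y-KO and 0.938 ± 0.0774 in Y-Scr, and the groups overlapped. With the same lengths, the ratio of activators to the inhibitor members was 0.152 ± 0.00656 in Y-KO and 0.322 ± 0.0231 in Y-Scr, with no overlap.

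**Figure D3:**
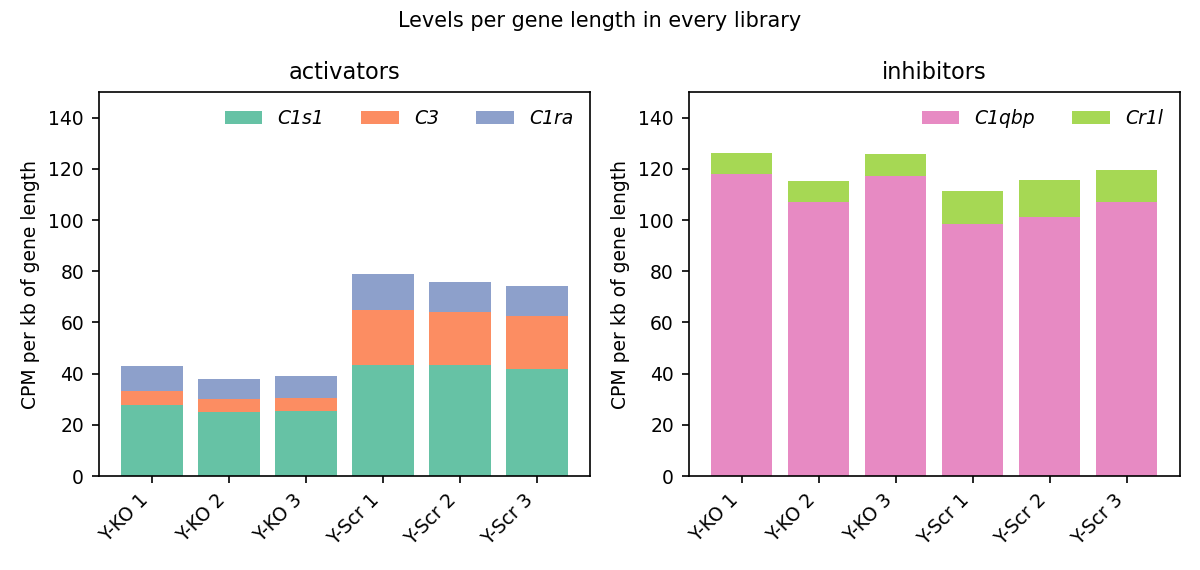
Levels in CPM per kilobase of deposited gene length in every library, as stacked bars from 0, for the activators C1s1, C3 and C1ra (left) and for C1qbp with the added Cr1l (right). Cfb, C4b, Cd55, Cd59a and Cd46 are too low to draw. The activator bars are lower in the 3 Y-KO libraries, and the C3 layer is thinner there.

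The rest of the pathway was sparse. Of 59 genes in a wider complement list, which holds the 9 members, 20 had 0 counts in all libraries and 14 passed the filter. Among the 50 list genes that are not members, 10 were tested, of which 2 fell (Fcna and Cr1l), 2 rose (Clu and Itgb2) and 6 did not pass. Their median log2 fold change was 0.02. These counts are near the shares of all tested genes given above.

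Fcna, which encodes ficolin-A, a recognition protein of the lectin pathway, had the largest change after C3 among the 14 list genes that passed the filter. Fcna stood at 14.6, 13.8 and 12.9 CPM in Y-KO, against 31.5, 33.8 and 31.0 CPM in Y-Scr, and fell by 1.22 on the log2 scale (SE 0.10, adjusted p = 1.2e-08 by edgeR's quasi-likelihood test). Its antisense gene Fcnaos had 0 to 7 counts per library. Of 21 classical and lectin activators, 5 were tested, of which 3 fell (Fcna and the members C1s1 and C1ra) and 0 rose, beside 23.0% lower and 20.7% higher over all tested genes. C1rl, a C1r-like gene next to C1ra, stood at 0.03 ± 0.20 (SE, adjusted p = 0.928). The 3 genes of C1q, whose binding starts the classical pathway, had 0 counts in Y-KO and 1 in Y-Scr together, all from C1qb. C2 had 8, 4 and 7 counts in Y-KO, against 6, 7 and 2 in Y-Scr.

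Of the 3 tested genes of the alternative and terminal pathways, only C3 passed the threshold. Cfp, which encodes properdin, the stabilizer of the alternative convertase, stood at 2.58 ± 0.435 CPM in Y-KO and 2.52 ± 0.780 CPM in Y-Scr (0.02 ± 0.29 SE, adjusted p = 0.963, edgeR's quasi-likelihood test). Cfd, the factor D gene, had 0 counts throughout. Of 7 terminal component genes, C8g was tested and stood at -0.36 ± 0.41 (SE, adjusted p = 0.503). C8g overlaps Fbxw5 on the opposite strand, which had 492 to 937 counts per library, so its counts are uncertain.

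Of 9 soluble and intracellular inhibitor genes, C1qbp and Clu were tested. Clu, which encodes clusterin, a chaperone that also keeps the terminal complex from inserting into membranes, stood at 19.0, 15.9 and 19.7 CPM in Y-KO, against 13.2, 12.7 and 15.0 CPM in Y-Scr. It rose by 0.41 (SE 0.12, adjusted p = 0.0097 by edgeR's quasi-likelihood test), and without Y-KO 3 it lost the call (0.35, adjusted p = 0.0574). Serping1, the gene of the inhibitor of C1r and C1s, had 0 counts in Y-KO and 5 counts in Y-Scr, all in Y-Scr 3. Cfi and C4bp had 0 counts in all libraries. Among 10 receptor genes, Itgb2, the beta chain of complement receptors 3 and 4 on leukocytes, stood at 10.9, 8.89 and 8.66 CPM in Y-KO, against 6.76, 6.89 and 6.55 CPM in Y-Scr. It rose by 0.50 (SE 0.16, adjusted p = 0.015 by edgeR's quasi-likelihood test), and lost the call without Y-KO 1 (0.38, adjusted p = 0.103). Its alpha chain partners Itgam and Itgax had 0 counts in Y-KO and 0 and 2 in Y-Scr. C3ar1, the receptor for the C3a fragment (-0.25 ± 0.39 SE, adjusted p = 0.63), and Calr, which encodes the C1q-binding chaperone calreticulin (0.08 ± 0.06 SE, adjusted p = 0.338), did not pass.

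**Figure D4:**
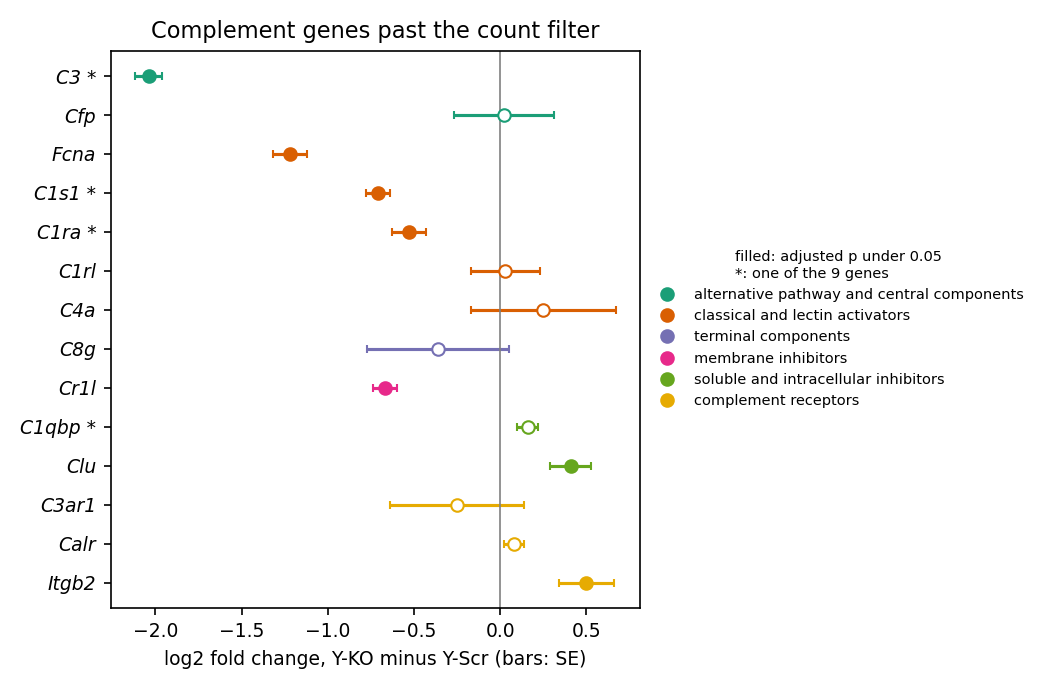
Log2 fold change (Y-KO minus Y-Scr) with its standard error for the 14 genes of the wider complement list that passed the count filter, coloured by role (filled, adjusted p under 0.05; asterisk, member of the 9). C3 lies lowest at -2.04, followed by Fcna at -1.22, and Itgb2 lies highest at 0.50.

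The genes whose profile over the 6 libraries lay closest to that of C3 were sought among 9468 other protein-coding genes averaging 5 CPM or more. By Euclidean distance between log2 CPM values, each centred on its own mean, the nearest were Cyr61 (distance 0.13), which encodes a matricellular protein, Gadd45g (0.203), Ifi27 (0.247), AA467197 (0.305) and Sp100 (0.308). Their log2 fold changes ranged from -2.16 for Ifi27 to -1.87 for Sp100. With 2 groups of 3 libraries, this likeness rests mostly on the size of the difference between the groups.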

How the data were processed

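Poly-A RNA of 3 CRISPR Y-KO and 3 CRISPR Y-Scr samples of MB49 cells was sequenced, with stranded TruSeq libraries per the labels' protocols. The authors deposited whole-number read counts per gene without normalization, and a gene length with no stated origin. Per the submitters' processing notes, reads were handled with Trimmomatic 0.39, featureCounts 1.5.3, STAR 2.5.2b, MultiQC 1.13, DESeq2 and FastQC 0.12.1 (roles and order not given), and the builds GRCm39 and mm39. Of 54409 genes also in GENCODE vM21, 98.3% had identical GRCm38 coordinates, so positions are given as GRCm38.

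Y-KO was tested against Y-Scr in edgeR 4.0.16 (R 4.3.3; TMM, filterByExpr, robust quasi-likelihood fit on group, Benjamini-Hochberg over 12907 genes, threshold 0.05). The standard error is the size of the log2 fold change divided by the square root of its F statistic. On simulated counts for this comparison (12747 genes, 200 changed), 70.7% of genes changed 1.5-fold and 91.6% of those changed 2-fold were recovered, with 7.65% false calls. In the data a far larger share, 43.6% of tested genes, was called, so these rates may not hold there. No replicate pair looked like 1 library deposited again, since chi-square divided by its degrees of freedom was 3.44 to 14.8. The alternatives were RLE and upper-quartile scaling, DESeq2 1.42.0, limma-voom (limma 3.58.1), 2 other filters, protein-coding genes, the replicate number as a block, length and GC trends removed, copies summed and each library left out.

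The members, lists and motifs were chosen with earlier results of these data known. Named genes were the members, list genes past the filter, the copies, 4 Y genes and the 5 genes nearest to C3. Other list genes with few or no counts are named as examples, chosen after their values were seen. Exact intervals are Clopper-Pearson at 95%.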

Additional observations from a re-analysis of the deposited data

How the results depend on the processing

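The falls of C3 (-2.09 to -2.01), C1s1 (-0.76 to -0.51), C1ra (-0.62 to -0.39), Fcna (-1.26 to -1.10) and Cr1l (-0.73 to -0.55) kept their direction and call in all 16 alternatives. C1qbp (0.13 to 0.30) passed the threshold with RLE scaling (adjusted p = 0.0408), upper-quartile scaling (0.0441), DESeq2 (0.0339), the length and GC trend removed (1.1e-04) and without Y-Scr 3 (0.0203) or Y-KO 2 (0.0367), so 3 or 4 members were called. Calr was called with the trend removed (0.25, adjusted p = 6.3e-04), a setting in which the median of all tested genes was 0.06, beside -0.01 in the main fit. The sign of weakly expressed genes turned when libraries were left out, over ranges of -0.13 to 0.20 for C1rl, -0.20 to 0.21 for Cfp and -0.18 to 0.42 for C4a, none of them called, and the cause was not tested. Between 6 and 9 list genes were called. The difference in the log2 ratio of activators to inhibitors (-1.09) lay between -1.15 and -1.04 in all settings run. Replicate numbers did not pair the samples: deviations of same-numbered libraries correlated at -0.0642, -0.0344 and -0.024, and the replicate block gave 4960 called genes in place of 5633, with the same 3 members. Low counts limit Cfb, C4b, Cd55, Cd59a and Cd46, for which only large differences could be seen. Whether reads shared between near-identical copies were lost before counting was not tested.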
